A study of Mus musculus with 115 samples.

Results

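The oocytes of leptin-deficient ob/ob mice were compared with wild type oocytes that were in the same transcriptional state. Single cells had been picked by hand from collagenase-treated ovaries, and each library pooled barcoded cells. The comparison held 3 of the 4 ob/ob oocyte libraries (replicates 1, 3 and 4) and 7 of the 12 wild type oocyte libraries (replicates 1 to 5, 11 and 12), 10 of the 16 oocyte libraries of these genotypes. They were chosen by measured values: libraries in another oocyte state were left out, and the rule lists the libraries without saying which values define that state (UMIs below are unique molecules counted). Cells were kept with at least 1000 genes and 3000 UMIs, which left 177 ob/ob and 461 wild type oocytes, 638 in all. The wild type mice were C57BL/6-129Sv and the ob/ob mice C57BL/6, so genotype and strain cannot be told apart in any difference below. The db/db oocyte libraries (4, from C57BL/6 mice with a mutant leptin receptor) are given side by side. The sources used here give no age or diet of the mice, and the labels name no animal, so each library counts as a replicate. The p-values therefore measure only how libraries vary, and part of that variation may be technical.

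The ob mutation abolishes leptin, the adipose hormone that signals energy stores to the hypothalamus, and homozygous females are obese and infertile. A growing oocyte makes and stores the messenger RNAs, proteins, lipid and mitochondria on which the early embryo will depend until its own genome is active. It lies inside granulosa cells, to which gap junctions join it, with theca cells outside the follicle wall.

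The kept cells matched the label. Each of the 15 oocyte markers was tested in the comparison, Zp3 had a UMI in 100% of the cells of both groups, and 636 of 638 cells had more UMIs of oocyte markers than of all other marker lists together. Libraries held 6043865 to 21249964 UMIs in ob/ob and 10814344 to 17827995 in wild type oocytes. The mitochondrial share was 1.25% to 5.17% in the libraries compared and 4.83% to 17.6% in the oocyte libraries of these genotypes that were left out. At 10000 UMIs per cell the libraries compared had 2828 to 3097 genes per cell, and those left out had 1768 to 2318. In the groups compared the mitochondrial share was 3.73% ± 1.43 (SD, n = 3) in ob/ob and 2.64% ± 1.09 (SD, n = 7) in wild type oocytes, and genes per cell were 2981 ± 138.4 and 2977 ± 61.5. Both measures separate or nearly separate the libraries left out from those compared, so they are given as a description with no test. UMIs per UMI of the ERCC spike-in were 556 ± 255 and 440 ± 224 (exact permutation test, two-sided, p = 0.483, adjusted p = 0.604 over 5 library measures).

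Of 13332 genes tested, 396 rose in ob/ob oocytes (2.97%) and 323 fell (2.42%) at an adjusted p under 0.05 in edgeR's quasi-likelihood test, 5.39% in all. All 3 ob/ob libraries lay above all 7 wild type libraries for 5.79% of the genes tested and below them for 5.69%. The falls went deeper than the rises. Of all called genes, 130 falls and 46 rises passed 2 on the log2 scale. Among called genes that averaged 20 CPM or more (CPM, the UMI count scaled to library size by TMM), 22 falls and 2 rises did. That average holds 7 wild type and 3 ob/ob libraries, so it admits genes high only in wild type more easily. The median log2 fold change over all genes tested was -0.05. When the mean CPM of single cells was tested with limma in place of summed counts, 209 genes rose and 397 fell, so the split between directions depended on how cells were weighted. The calls also rested on few ob/ob libraries: without ob/ob replicate 1, 3 or 4 the count of 719 went to 278, 340 and 185. Leaving out wild type replicate 2 raised it to 1203, and leaving out wild type replicate 3 lowered it to 460. With all 4 ob/ob and 12 wild type oocyte libraries, whatever their state, no gene rose and 32 fell among 13081 tested (edgeR). At an unadjusted p under 0.05, which chance alone passes at a rate of 0.05, 269 of the 13081 were higher and 484 lower. Pnpla3, Mtfr2, Gsto2, Skint5, Defa29, Spesp1, Epcam, Slc27a2, H2-T22, Manba, Pxdn and AA465934 were among those 32, and the other called genes named here lost their call, with adjusted p-values of 0.0875 (Gng4) to 0.999.

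**Figure D1:**
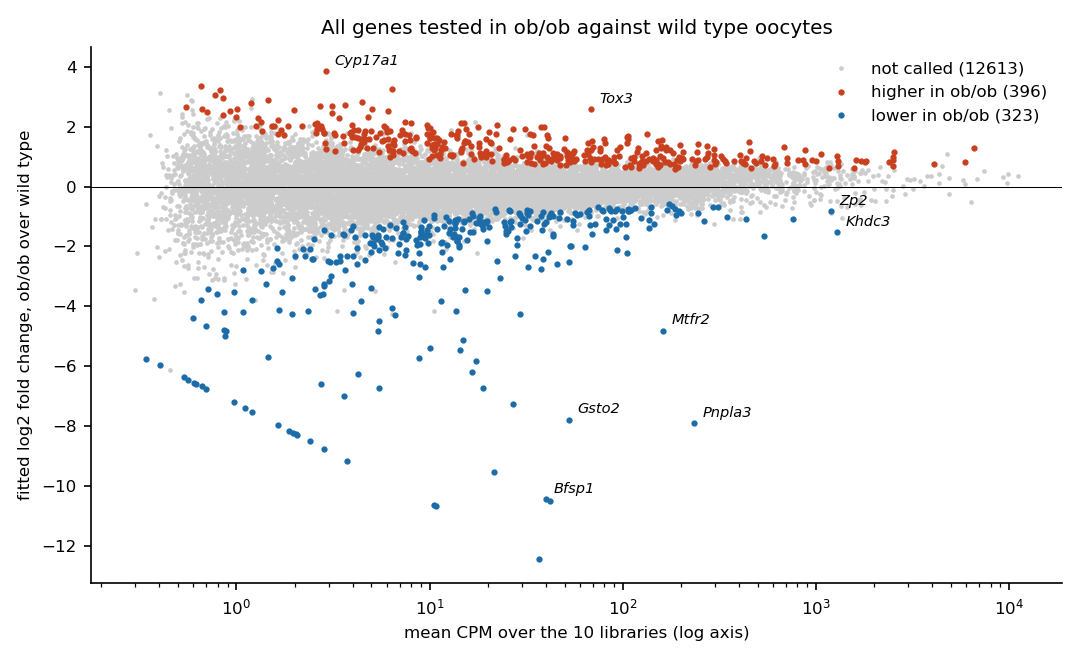
Fitted log2 fold change of ob/ob over wild type oocytes (y) against mean CPM over the 10 libraries (x, log axis), 1 point per gene tested. The 396 genes called higher stay mostly below a log2 change of 3, whereas the 323 called lower reach below -10.

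The deepest falls were of transcripts that were plain in every compared wild type library and almost absent from every compared ob/ob library. For some of them the left-out wild type libraries were low too, as given below. Pnpla3 encodes a patatin-like lipase of the lipid droplet surface. It stood at 200 to 507 CPM in the 7 wild type libraries (median 320) and at 1.54, 1.12 and 1.31 CPM in ob/ob replicates 1, 3 and 4. The fitted change was -7.92 ± 0.38 (SE, log2), a 242-fold lower level, with an adjusted p of 4.0e-09 (edgeR). A Pnpla3 UMI was found in 98.3% of wild type and 13.6% of ob/ob oocytes. The groups lay far apart, and the 4 db/db libraries sat above all compared wild type libraries, at 573, 822, 962 and 753 CPM. In the left-out libraries Pnpla3 was again at 0 CPM in the ob/ob library and at 397 to 713 CPM in the 5 wild type libraries.

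Mtfr2, a regulator of mitochondrial fission, stood at 189 to 350 CPM in wild type oocytes (median 204) and at 8.67, 8.70 and 6.57 CPM in ob/ob oocytes. Its log2 change was -4.82 ± 0.28 (SE, adjusted p = 3.0e-08, edgeR), a 28.2-fold lower level. No ob/ob library came near the wild type range, and the left-out libraries held 21.2 CPM in ob/ob and 669.8 to 906 CPM in wild type. Unlike Pnpla3, Mtfr2 was also low in db/db oocytes, at 10.8, 9.19, 13.99 and 3.58 CPM. In somatic libraries, which hold mixed cell types, Mtfr2 was lower in ob/ob as well (log2 change -2.41, adjusted p = 0.00079, edgeR). Its means there were 2.65 ± 4.201 CPM in ob/ob and 14.1 ± 12.7 CPM in wild type (SD, n = 31 each).

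A further group of transcripts went to a single UMI or none. Bfsp1, which encodes the lens filament protein filensin, had 5909 UMIs in the 7 wild type libraries, at 40.1 to 73.0 CPM, and 1 UMI in the 3 ob/ob libraries. The ratio of wild type to ob/ob is 2066, with a 95% counting interval of 371 to 81625. Skint5, of a family named for the upkeep of skin T cells, had 6010 UMIs against 1 UMI, and Spesp1, which encodes a protein of the sperm equatorial segment, had 3117 UMIs against 1 UMI. Defa29, an alpha-defensin, had 5422 UMIs against 0 UMIs. Set against a floor of 3 UMIs over the ob/ob group, Defa29 was at least 632-fold lower. The defensins are a family of near-identical genes among which reads may be split, so the identity of this transcript is uncertain. In db/db oocytes Bfsp1, Spesp1 and Defa29 were at 0 CPM in all 4 libraries, and Skint5 stood at 5.37 to 24.3 CPM. The left-out wild type libraries were low for all 4 genes, at 0.112 to 2.15 CPM of Bfsp1, 0 to 3.51 CPM of Spesp1, 1.404 to 19.5 CPM of Defa29 and 7.02 to 12.1 CPM of Skint5. The left-out ob/ob library held 0.607 CPM of Bfsp1, inside the range of its wild type counterparts, and 0 CPM of the other 3 genes. Intervals and floors here cover counting error only.

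Stk32a, a serine/threonine kinase, and Epcam, an adhesion molecule of epithelia and germ cells, were also among the 10 deepest falls, as were Gsto2 and Cfap58 below, counting genes that averaged 20 CPM or more. Stk32a stood at 27.1 to 69.8 CPM in wild type libraries and at 0.0532, 0.842 and 0 CPM in ob/ob replicates 1, 3 and 4. Epcam stood at 27.3 to 54.3 CPM in wild type and at 1.49, 3.23 and 1.88 CPM in ob/ob libraries. Both genes separated the groups without overlap, with log2 changes of -7.26 ± 0.68 and -4.27 ± 0.36 (SE, adjusted p = 9.8e-06 and 2.4e-06, edgeR). These 10 falls kept their call without any 1 of the 10 libraries compared. In the left-out libraries Epcam kept apart, at 7.28 CPM in ob/ob and 119.4 to 282 CPM in wild type, while Stk32a did not, at 3.94 CPM and 3.16 to 16.7 CPM. Both were low in db/db oocytes too, Stk32a at 0 to 0.777 CPM and Epcam at 0.777 to 3.43 CPM.

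**Figure D2:**
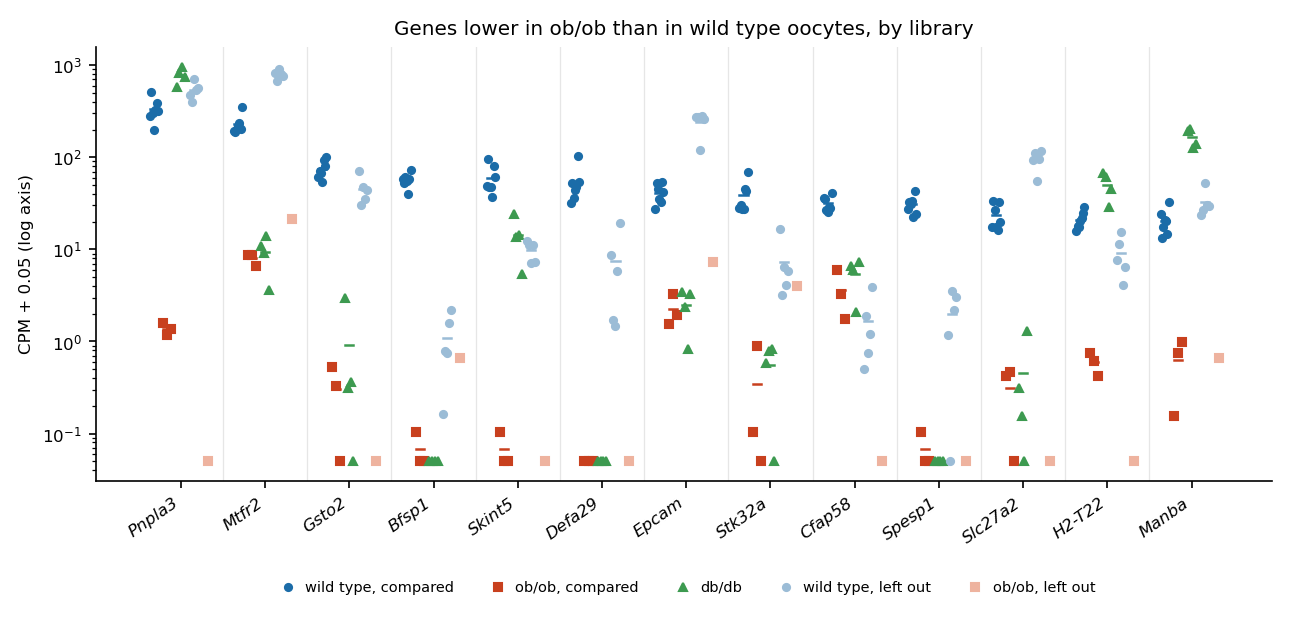
CPM plus 0.05 (log axis) of 13 genes lower in ob/ob oocytes, 1 point per library, with a bar at the mean of each group of libraries. Red squares (compared ob/ob) lie below the blue circles (compared wild type) for every gene shown. The paler squares and circles are the left-out libraries. The green triangles (db/db) lie above the compared wild type libraries for Pnpla3 and Manba.

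Gsto2 and Cfap58 are close neighbours on chromosome 19. Gsto2 and Gsto1 encode omega-class glutathione transferases, which reduce dehydroascorbate among other substrates, Itprip encodes a protein that binds the inositol trisphosphate receptor, and Cfap58 encodes a protein of cilia and flagella. In the RefSeq order of protein-coding genes the run reads Sfr1, Cfap43, Gsto1, Gsto2, Itprip, Cfap58, Sorcs3. All 4 genes in the middle of that run fell in ob/ob oocytes. Their promoters are printed because these 4 neighbours were each called lower in the libraries compared, and shared regulation was not tested. Each window runs from 250 bases before to 50 bases after the start (RefSeq, GRCm38.p6, each on its own strand, with E-box matches CANNTG in capitals). The windows are chr19:47854723-47855022 (+) for Gsto1, chr19:47865295-47865594 (+) for the first of the Gsto2 starts, chr19:47919274-47919573 (-) for Itprip and chr19:47937462-47937761 (+) for Cfap58.

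Gsto1: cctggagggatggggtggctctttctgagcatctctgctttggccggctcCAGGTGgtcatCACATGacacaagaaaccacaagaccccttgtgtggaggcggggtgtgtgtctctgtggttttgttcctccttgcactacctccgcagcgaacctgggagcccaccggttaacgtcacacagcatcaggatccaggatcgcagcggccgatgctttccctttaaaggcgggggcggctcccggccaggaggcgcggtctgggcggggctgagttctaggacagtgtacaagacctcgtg
Gsto2: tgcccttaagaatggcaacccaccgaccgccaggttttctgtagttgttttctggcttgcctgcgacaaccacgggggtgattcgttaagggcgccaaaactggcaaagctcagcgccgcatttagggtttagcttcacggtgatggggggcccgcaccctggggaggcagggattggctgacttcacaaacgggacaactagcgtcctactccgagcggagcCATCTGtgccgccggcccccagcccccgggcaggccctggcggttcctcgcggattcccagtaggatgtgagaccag
Itprip: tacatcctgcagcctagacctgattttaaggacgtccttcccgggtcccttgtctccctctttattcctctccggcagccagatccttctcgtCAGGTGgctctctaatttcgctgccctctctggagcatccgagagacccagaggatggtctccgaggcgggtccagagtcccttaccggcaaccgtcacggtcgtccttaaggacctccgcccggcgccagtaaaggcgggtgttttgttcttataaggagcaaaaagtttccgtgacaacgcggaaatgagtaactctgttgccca
Cfap58: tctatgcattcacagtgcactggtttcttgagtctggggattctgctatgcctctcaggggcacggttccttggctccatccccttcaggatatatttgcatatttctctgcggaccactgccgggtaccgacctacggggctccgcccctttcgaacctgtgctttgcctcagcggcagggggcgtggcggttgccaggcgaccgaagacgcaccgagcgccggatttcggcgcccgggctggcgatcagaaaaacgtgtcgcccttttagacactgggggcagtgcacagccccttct

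Gsto1 held 2 E-box matches, Gsto2 and Itprip 1 each and Cfap58 held 0, while 72.3% of all 32851 promoter windows of this length held at least 1 on either strand. Neither the TATA box TATAAA, found in 13.6% of all windows, nor the Nobox motif TAATTG, found in 8.0%, was present in the 4 windows. These matches describe the letters only.

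Gsto2 stood at 53.5 to 101.6 CPM in wild type oocytes (median 71.7) and at 0.479, 0.281 and 0 CPM in ob/ob oocytes. Its log2 change was -7.79 ± 0.45 (SE, adjusted p = 3.0e-08, edgeR), and the left-out ob/ob library, at 0 CPM, again lay below the 30.1 to 70.8 CPM of its wild type counterparts. Cfap58 stood at 25.2 to 40.7 CPM in wild type and at 5.85, 3.23 and 1.69 CPM in ob/ob oocytes. The left-out wild type libraries were low in Cfap58 (0.450 to 3.88 CPM), Gsto1 (0 to 3.59 CPM) and Itprip (0.558 to 1.80 CPM), and the left-out ob/ob library held 0, 3.64 and 0 CPM. Gsto1 and Itprip moved less, and neither group overlapped. Gsto1 fell from 8.97 ± 4.74 to 1.93 ± 0.284 CPM (log2 change -2.21, adjusted p = 0.012, edgeR). Itprip, named after its values were seen, fell from 23.3 ± 3.78 to 9.95 ± 2.47 CPM (log2 change -1.21, adjusted p = 0.010, edgeR). The call of Gsto1 was lost without ob/ob replicate 1 (adjusted p = 0.0684) or 4 (0.0776), and that of Itprip without ob/ob replicate 4 (0.0854). The genes on the outside did not pass the test: Sfr1 had a log2 change of 0.19 (adjusted p = 0.499, edgeR), Cfap43 of 0.02 (adjusted p = 0.989) and Sorcs3 of -0.85 (adjusted p = 0.298). In db/db oocytes Gsto2 was at 0 to 2.91 CPM, Gsto1 at 0.932 to 4.30 CPM, Cfap58 at 2.02 to 7.16 CPM and Itprip at 11.7 to 21.6 CPM. The counting's use of strand is not given in the sources used here, so overlapping transcripts at this place could not be separated.

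The largest rise was of Tox3, which encodes a high mobility group box protein of the nucleus. It stood at 15.6 to 38.1 CPM in wild type oocytes (median 31.6) and at 149.7, 113.1 and 229 CPM in ob/ob replicates 1, 3 and 4. The log2 change was 2.59 ± 0.28 (SE, adjusted p = 4.9e-05, edgeR), a 6.03-fold higher level, and every ob/ob library was above every wild type library. The 4 db/db libraries stood at 83.8 to 259 CPM. In the left-out state Tox3 was high in both genotypes, at 341 CPM in the ob/ob library and 145.8 to 308 CPM in the wild type libraries.

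Cfap53, which encodes a ciliary protein, stood at 39.3 to 141.5 CPM in wild type and at 207, 264 and 319 CPM in ob/ob oocytes. Fut10, of the fucosyltransferase family, stood at 7.11 to 19.8 CPM and at 37.9, 40.4 and 52.8 CPM. Kynu, the kynureninase of tryptophan breakdown, stood at 6.08 to 17.2 CPM and at 35.6, 35.8 and 51.3 CPM. These groups did not overlap, and the 3 genes rose by log2 changes of 1.76, 1.76 and 1.84 (adjusted p = 0.0032, 0.0013 and 0.00076, edgeR). The left-out wild type libraries, of the other oocyte state, lay above every compared wild type library, at 208 to 611 CPM for Cfap53, 37.2 to 92.6 CPM for Fut10 and 41.4 to 79.8 CPM for Kynu. Gng4, a G protein gamma subunit, went from 12.4 to 34.9 CPM in wild type to 49.5, 74.7 and 71.5 CPM in ob/ob oocytes (log2 change 1.77 ± 0.29 SE, adjusted p = 0.0024, edgeR). Its left-out libraries were at 22.5 to 29.6 CPM in wild type and 36.4 CPM in ob/ob.

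Some transcripts of the cells around the oocyte also rose. Inha, which encodes the alpha subunit of inhibin in granulosa cells, stood at 7.13 to 33.6 CPM in wild type and at 56.9, 88.8 and 91.6 CPM in ob/ob libraries (log2 change 1.99 ± 0.40 SE, adjusted p = 0.0089, edgeR). Amhr2, the receptor of anti-Mullerian hormone, stood at 0.449 to 1.37 CPM and at 2.02, 3.93 and 8.26 CPM (log2 change 2.56 ± 0.50 SE, adjusted p = 0.0080). Both calls were lost without ob/ob replicate 4 (adjusted p = 0.0659 for Inha and 0.129 for Amhr2). Of 15 granulosa markers 14 were tested, 2 rose and 0 fell (all genes, 2.97% and 2.42%), and 13 of 14 had a positive log2 change, with a median of 1.22 against -0.05 over all genes. The summed level of the list was 51.9 to 184 CPM (median 83.3) in wild type libraries and 125.5, 263 and 266 CPM in ob/ob replicates 1, 3 and 4 (exact permutation test, two-sided, p = 0.05, adjusted p = 0.25, with 0.017 the smallest p that 3 against 7 libraries allow). Defining markers were low in both groups, with 36 UMIs of Foxl2 and 5 UMIs of Amh in all ob/ob oocytes compared. In summed libraries, more adhering cells and more RNA per cell cannot be told apart.

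Theca markers gave 2 rises and 0 falls among 9 tested, beside 2.97% and 2.42% of all genes, and 6 of the 9 had a positive log2 change. Hsd3b1, a 3-beta-hydroxysteroid dehydrogenase, stood at 3.49 to 24.8 CPM in wild type and at 10.2, 63.1 and 70.6 CPM in ob/ob libraries (log2 change 2.07 ± 0.53 SE, adjusted p = 0.032, edgeR). Cyp17a1, the steroid 17-alpha-hydroxylase, stood at 0.0759 to 1.28 CPM and at 0.373, 6.46 and 18.2 CPM (log2 change 3.85 ± 0.79 SE, adjusted p = 0.010). For both genes ob/ob replicate 1 lay inside the wild type range, and the call was lost without ob/ob replicate 4 (adjusted p = 0.220 for Hsd3b1 and 0.194 for Cyp17a1); for Hsd3b1 it was also lost without ob/ob replicate 3 (adjusted p = 0.145) and without any of wild type replicates 1, 3, 4 or 11 (adjusted p of 0.052 to 0.057). The summed theca list, which holds both genes, stood at 68.9, 194 and 200.4 CPM in ob/ob replicates 1, 3 and 4 and at 81.3 to 143.9 CPM in wild type libraries, so that ob/ob replicate 1 lay below and the others above all wild type libraries. Insl3, its defining marker, had 1 UMI in wild type and 0 UMIs in ob/ob oocytes. Whether adhering cells take part in these rises was not tested. Stroma, endothelium, macrophage and luteal markers gave 0 calls among 9, 3, 4 and 4 tested in edgeR's test, with 0, 1, 1 and 2 at an unadjusted p under 0.05. DESeq2 called 0, 1, 0 and 1 of them and limma 0, 1, 0 and 0. Of all 13332 genes tested, 3014 were under that unadjusted threshold. Blood markers were all under the filter. Of 3 surface epithelium markers Krt18 rose, from 0.236 ± 0.110 to 2.03 ± 0.453 CPM (adjusted p = 0.0056, edgeR). The other two went the other way and did not pass: Krt8 stood at 8.79 ± 7.597 and 1.59 ± 0.455 CPM (log2 change -2.52, adjusted p = 0.058), with no overlap, and Upk3b stood at 0.257 to 1.21 CPM and at 0.639, 0.561 and 0 CPM (log2 change -0.41, adjusted p = 0.792).

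**Figure D3:**
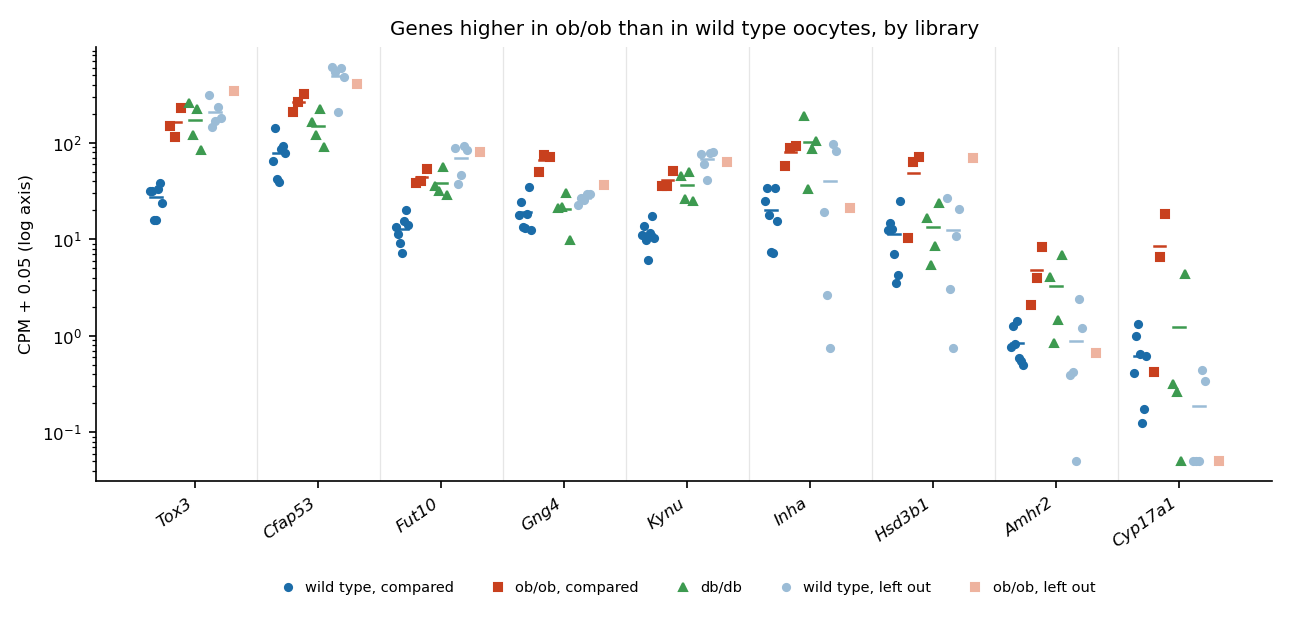
CPM plus 0.05 (log axis) of 9 genes higher in ob/ob oocytes, 1 point per library, with a bar at the mean of each group of libraries. For Hsd3b1 and Cyp17a1 the lowest ob/ob library lies among the wild type libraries, and for Tox3, Cfap53, Fut10 and Kynu the left-out wild type libraries lie above all compared wild type libraries.

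In the lists of oocyte identity and maternal store, most genes were not called, and those called were lower in ob/ob with the exception of Aurkc. The left-out wild type libraries lay below every compared wild type library for Zp2 (21.1 to 44.6 CPM) and Khdc3 (29.1 to 51.3 CPM). The same held for Tbpl2, Mael, Tdrd9 and Cpeb1, while for Aurkc the left-out wild type libraries lay above (298 to 833 CPM). For Uhrf1, Kdm1b, Pabpn1l, Ddx4 and Gjc1 the ranges overlapped. Whether oocyte state takes part in these changes was not tested. The summed level of the 15 oocyte markers was 33162.5 ± 3082 CPM in ob/ob and 37467 ± 6277 CPM in wild type libraries (exact permutation test, two-sided, p = 0.283, adjusted p = 0.472). Members of this sum differ between the states by which libraries were chosen, so the test cannot decide whether oocyte identity was kept. Zp2, a protein of the zona pellucida, fell from 1100 to 1777 CPM in wild type to 956, 669 and 693 CPM in ob/ob oocytes (log2 change -0.82 ± 0.20 SE, adjusted p = 0.026, edgeR). The fall in Zp2 was lost without ob/ob replicate 3 (adjusted p = 0.122) or 4 (adjusted p = 0.163). Zp3, its partner in the zona, overlapped at 3469 to 6832 CPM and 5468, 3888 and 3574 CPM, as did Gdf9, the growth factor that the oocyte sends to granulosa cells, at 2454 to 3575 CPM and 3617, 1961 and 1978 CPM. Of 13 zona and growth factor genes tested 1 fell and 12 had a negative change (median -0.46). Of all 13332 genes 2.42% fell and 7182 had a negative change (median -0.05). In the left-out wild type libraries Zp3 was lower (121.6 to 222.9 CPM) and Gdf9 higher (4036 to 5627 CPM) than in every compared wild type library.

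Among 25 maternal effect genes tested, whose products the embryo needs, 3 fell and 0 rose (median log2 change -0.37), where 2.42% of all genes fell. Khdc3, a member of the subcortical maternal complex, stood at 746 to 2375 CPM in wild type oocytes and at 490, 606 and 575 CPM in ob/ob oocytes (log2 change -1.52 ± 0.31 SE, adjusted p = 0.010, edgeR). Uhrf1, which brings the maintenance DNA methyltransferase to replicated DNA, stood at 237 to 381 CPM and at 122.2, 179 and 125.4 CPM (log2 change -1.16, adjusted p = 0.0043). Kdm1b, a histone demethylase required to set maternal imprints, stood at 200.1 to 367 CPM and at 182, 142.99 and 130.7 CPM (log2 change -0.90, adjusted p = 0.027). None of these 3 genes had overlapping groups, as for 5.69% of all genes in this direction. Without ob/ob replicate 4 all 3 calls were lost (adjusted p = 0.0695, 0.0509 and 0.179), without ob/ob replicate 1 those of Khdc3 (0.0635) and Kdm1b (0.0521), and without ob/ob replicate 3 that of Kdm1b (0.114). The db/db libraries differed among the genes: Khdc3 stood at 880 to 1741 CPM there, inside the wild type range, while Kdm1b stood at 116.2 to 185 CPM, below it. Uhrf1 and Kdm1b were also the 2 falls among 18 genes of DNA methylation and imprinting.

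Maternal messenger RNA storage and decay gave 2 falls among 26 genes tested, and all genes 2.42%. Pabpn1l, the poly(A) binding protein that recruits the decay machinery at the maternal to zygotic transition, stood at 377 to 906 CPM in wild type and at 254, 197 and 192 CPM in ob/ob oocytes (log2 change -1.65 ± 0.25 SE, adjusted p = 0.0012, edgeR). Cpeb1, which holds stored messages until maturation, went from 351 ± 39.6 to 219 ± 16.9 CPM (log2 change -0.68, adjusted p = 0.029). Among 18 genes of the piRNA and small RNA pathways 3 fell and 0 rose. Ddx4, the germ cell helicase Vasa, stood at 77.4 to 178 CPM and at 50.2, 38.6 and 32.9 CPM (log2 change -1.69 ± 0.27 SE, adjusted p = 0.0022). Mael, a partner of the piRNA pathway, went from 86.3 ± 31.3 to 28.965 ± 2.39 CPM and Tdrd9, a Tudor domain helicase, from 19.2 ± 2.53 to 10.4 ± 0.732 CPM (adjusted p = 0.0071 and 0.031). Tbpl2, the TATA binding protein variant of the growing oocyte, fell from 39.05 ± 19.1 to 13.7 ± 2.46 CPM (log2 change -1.50, adjusted p = 0.036) and was the only call among 16 oocyte transcription factors tested. Pabpn1l and Ddx4 kept their call without any 1 of the 10 libraries. Mael lost it without ob/ob replicate 4 (adjusted p = 0.0621), and Cpeb1, Tdrd9 and Tbpl2 without any of ob/ob replicates 1, 3 and 4 (adjusted p of 0.0774 to 0.178 for Cpeb1, 0.0902 to 0.156 for Tdrd9 and 0.106 to 0.195 for Tbpl2). Wild type replicate 3 was needed as well for these 3 (0.0546, 0.052 and 0.0603), replicate 11 for Tdrd9 and Tbpl2 (0.0508 and 0.0515), replicate 4 for Tdrd9 (0.0554) and replicate 1 for Tbpl2 (0.052). Nobox, a homeobox factor of that list, stood at 749 ± 194 and 804 ± 103.9 CPM (adjusted p = 0.821).

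Meiosis genes gave 1 call among 27 tested, a rise. Both counts in this paragraph are to be read against 2.97% of all genes higher and 2.42% lower. Aurkc, the Aurora kinase of meiotic chromosomes, stood at 94.6 to 183 CPM in wild type and at 273, 268 and 307 CPM in ob/ob oocytes (log2 change 0.90 ± 0.20 SE, adjusted p = 0.015, edgeR), although leaving out any of the 3 ob/ob libraries ended the call (adjusted p of 0.052 to 0.107). Ccnb1, the cyclin of meiotic resumption, stood at 1296 ± 328 and 1373 ± 139.2 CPM (adjusted p = 0.846). Of the oocyte's receptors and junctions Gjc1, a connexin, was the 1 fall among 16, from 3.95 ± 2.07 to 0.686 ± 0.108 CPM, a call lost without any of the 3 ob/ob libraries (adjusted p of 0.0951 to 0.105), while Gja4, the connexin that couples oocyte and granulosa cells, stood at 398 ± 118.8 and 292 ± 41.3 CPM (adjusted p = 0.287).

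**Figure D4:**
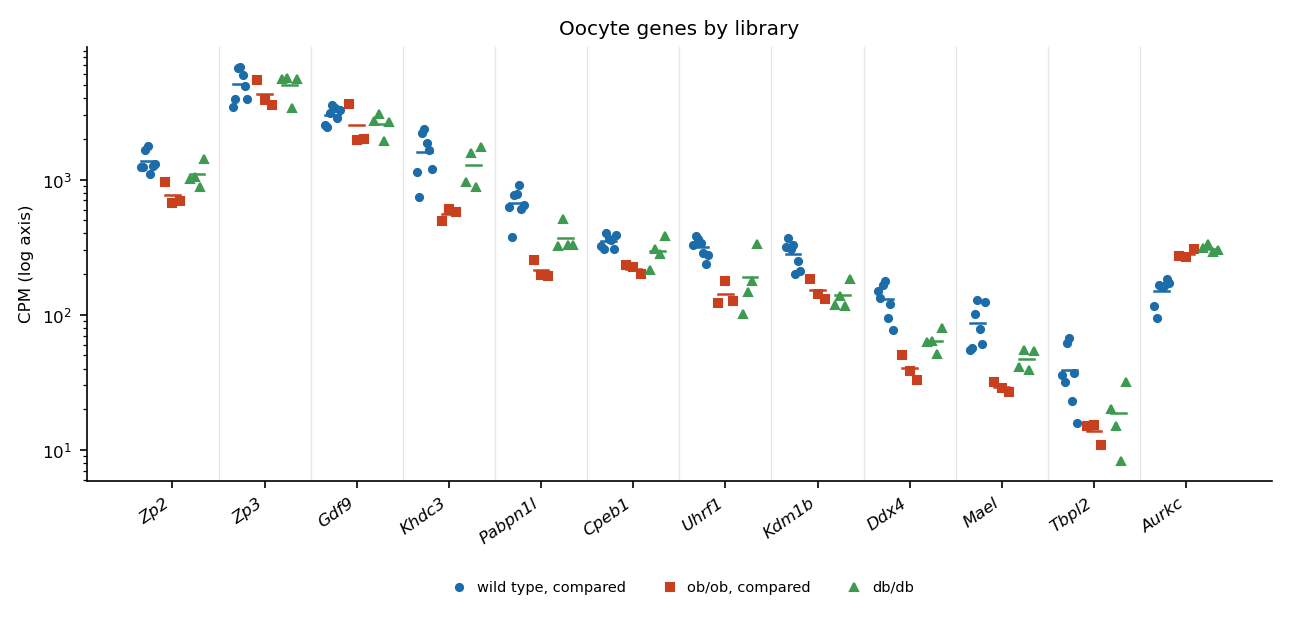
CPM (log axis) of 12 oocyte genes in the compared wild type and ob/ob libraries and the db/db libraries, 1 point per library, with a bar at each group's mean. Zp3 and Gdf9 overlap between wild type and ob/ob, Zp2, Khdc3, Pabpn1l and Ddx4 are lower in every ob/ob library, and Aurkc is higher in every one.

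The lipid, energy, folding, redox and lysosomal lists that follow are to be read against 2.97% of all genes higher and 2.42% lower. Of 18 lipid droplet and lipolysis genes tested Pnpla3 was the only call, and Bscl2, the seipin of droplet formation, stood at 307 ± 83.003 and 395 ± 146.1 CPM (adjusted p = 0.404). Fatty acid uptake and activation gave 2 rises and 1 fall among 17. Slc27a2, an acyl-CoA synthetase of very long chain fatty acids, stood at 16.3 to 33.7 CPM in wild type and at 0.373, 0.421 and 0 CPM in ob/ob oocytes (log2 change -6.21 ± 0.52 SE, adjusted p = 2.2e-06, edgeR). Its left-out libraries repeated the gap, at 0 CPM in ob/ob and 55.5 to 117.1 CPM in wild type, and db/db oocytes stood at 0 to 1.25 CPM. Dbi, the acyl-CoA binding protein, rose from 433 ± 71.1 to 847 ± 194 CPM (log2 change 0.97, adjusted p = 0.0071, and 0.0878 without ob/ob replicate 4). The left-out wild type libraries held 489 to 1565 CPM of Dbi. Acsbg1, another acyl-CoA synthetase, stood at 0.803 to 2.27 CPM and 1.76, 7.999 and 17.5 CPM, with ob/ob replicate 1 inside the wild type range, and its call was lost without ob/ob replicate 4 (adjusted p = 0.139). Fatty acid oxidation and cholesterol synthesis gave 0 calls among 21 and 18 genes tested in edgeR's test, with 0 and 5 at an unadjusted p under 0.05 and medians of -0.04 and -0.37. DESeq2 called 0 and 2 of them and limma none. The unadjusted threshold was passed by 3014 of all 13332 genes tested.

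None of 50 nuclear oxidative phosphorylation genes passed edgeR's test (12 at an unadjusted p under 0.05, 2 called by DESeq2 and 0 by limma), with 32 of 50 positive and a median log2 change of 0.25. Over all 13332 genes tested, 3014 had an unadjusted p under 0.05 in edgeR's test, DESeq2 called 1432 and limma 883. Among 27 genes of mitochondrial dynamics Mtfr2 fell and Dnm1l rose. Dnm1l, the GTPase that divides mitochondria, went from 236 ± 30.4 to 440.3 ± 112.4 CPM (log2 change 0.90 ± 0.18 SE, adjusted p = 0.0094, edgeR, and 0.117 without ob/ob replicate 4). With all 4 ob/ob and 12 wild type libraries its log2 change was -0.03. The left-out wild type libraries held 394 to 1494 CPM of Dnm1l. Glycolysis and pyruvate genes gave 1 fall, Gapdh from 32.2 ± 8.53 to 12.5 ± 2.20 CPM, and 1 rise, Pdhb of the pyruvate dehydrogenase complex from 68.6 ± 10.97 to 112.55 ± 26.8 CPM, among 24. Gapdh lost its call without ob/ob replicate 3 (adjusted p = 0.0627) or 4 (0.0551), and Pdhb without any single library other than wild type replicate 2 (0.0547 to 0.241). The left-out wild type libraries lay below every compared wild type library for Gapdh (4.09 to 10.3 CPM) and above for Pdhb (103.5 to 141.6 CPM). Whether oocyte state takes part in these changes was not tested. Transcripts encoded by mitochondrial DNA make up the mitochondrial share and are given with no test. The complex I subunit mt-Nd1, named after its values were seen, stood at 1117 to 2995 CPM in wild type and at 3301, 4082 and 5024 CPM in ob/ob oocytes, at 1404 to 1996 CPM in db/db oocytes and at 6290 to 16439 CPM in the left-out wild type libraries. The ob/ob libraries thus lay between the compared and the left-out wild type libraries. Ribosomal protein genes gave 6 rises and 0 falls among 77 (median 0.11).

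Protein folding, redox and lysosomal lists each held a few calls. Pdia4 and Pdia3, disulfide isomerases of the endoplasmic reticulum, were the 2 falls among 23 chaperone genes, from 105.3 ± 11.6 to 59.3 ± 5.89 CPM and from 101.1 ± 55.998 to 37.1 ± 3.39 CPM (adjusted p = 0.015 and 0.049, edgeR). Pdia4 lost its call without any ob/ob library (adjusted p of 0.0546 to 0.082), and Pdia3 without any single library other than wild type replicates 2 and 12 (0.0515 to 0.218). The left-out wild type libraries lay below every compared wild type library for Pdia4 (23.2 to 40.7 CPM) and Pdia3 (18.97 to 37.7 CPM). Of 28 antioxidant genes 3 fell and 1 rose. Besides Gsto2 and Gsto1, the mitochondrial peroxiredoxin Prdx3 fell from 25.6 ± 2.74 to 14.1 ± 0.889 CPM, while Prdx4, the peroxiredoxin of the endoplasmic reticulum, rose from 5.38 ± 0.533 to 11.8 ± 2.37 CPM (adjusted p = 0.026 and 0.015). Prdx3 lost its call without any ob/ob library (0.0843 to 0.11) and Prdx4 without ob/ob replicate 3 (0.0501) or 4 (0.129). For Prdx3 the left-out wild type libraries also lay below (0.581 to 4.83 CPM), while for Prdx4 the ranges overlapped (0 to 8.99 CPM). Whether oocyte state takes part in the changes of Pdia4, Pdia3, Prdx3 and Prdx4 was not tested. Lysosomal genes gave 2 falls and 1 rise among 23. Manba, the lysosomal beta-mannosidase, stood at 13.1 to 32.5 CPM in wild type and at 0.106, 0.702 and 0.939 CPM in ob/ob oocytes (log2 change -5.47 ± 0.55 SE, adjusted p = 2.3e-05), whereas the 4 db/db libraries stood at 126.5 to 204 CPM, above all wild type libraries. Npc1, the cholesterol exporter of the lysosome, rose from 24.015 ± 3.86 to 50.9 ± 10.01 CPM (adjusted p = 0.0064), and Glb1, the beta-galactosidase, fell from 12.5 ± 3.28 to 5.95 ± 0.548 CPM (adjusted p = 0.046). Npc1 lost its call without ob/ob replicate 1 (0.0612), and Glb1 without any ob/ob library or wild type replicate 3, 4, 5 or 11 (0.0621 to 0.18). The left-out wild type libraries held 53.4 to 76.7 CPM of Npc1 and 4.46 to 11.2 CPM of Glb1.

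The histocompatibility genes gave 2 falls among 9 tested, where 2.42% of all genes fell. H2-T22, a nonclassical class I gene with close copies among which reads may be split, stood at 15.6 to 28.99 CPM in wild type and at 0.692, 0.561 and 0.376 CPM in ob/ob oocytes (log2 change -5.14 ± 0.37 SE, adjusted p = 4.7e-07, edgeR). The db/db oocytes, of the same strain label as ob/ob, stood at 28.4 to 67.6 CPM of H2-T22. The classical class I gene H2-K1 fell from 35.6 ± 16.3 to 10.9 ± 3.33 CPM (adjusted p = 0.015, and 0.082 or 0.105 without ob/ob replicate 1 or 4). Genes known to vary between laboratory strains were also read. Nnt, the mitochondrial transhydrogenase that C57BL/6J mice lack in part, stood at 1.41 ± 1.10 and 1.23 ± 0.511 CPM (adjusted p = 0.861). Ifi202b, an interferon-inducible gene, was under the filter in oocytes with 14 UMIs in wild type and 0 UMIs in ob/ob. In the somatic libraries of mixed cell types it stood at 32.4 ± 47.05 CPM in wild type and 0.952 ± 3.77 CPM in ob/ob (log2 change -5.07, adjusted p = 2.1e-05, edgeR, SD, n = 31 each).

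Lep had 5 UMIs in wild type and 4 UMIs in ob/ob oocytes, too few for a test, and gave no check of the genotype. Lepr, the leptin receptor, stood at 11.1 to 33.9 CPM in wild type (median 25.6) and at 27.2, 27.5 and 32.9 CPM in ob/ob oocytes, with a log2 change of 0.39 ± 0.29 (SE, adjusted p = 0.454, edgeR). Lepr had a UMI in 56.6% of wild type and 67.2% of ob/ob oocytes, and stood at 4.12 to 10.8 CPM in db/db oocytes. Of 20 leptin signalling genes 16 were tested and 0 passed edgeR's test, with 4 at an unadjusted p under 0.05, 3 called by DESeq2 and 0 by limma. Of 26 insulin, PI3K, FOXO and mTOR genes 0 passed, with 3 at an unadjusted p under 0.05, 1 called by DESeq2 and 0 by limma. Among all genes 5.39% were called, so 0 calls in lists of this size is near the background. An unadjusted p under 0.05 was found for 3014 of all 13332 genes tested. Their medians were -0.18 and -0.07. Foxo1, a transcription factor under insulin control, stood at 125.35 ± 41.8 and 163 ± 8.42 CPM in oocytes (adjusted p = 0.387, edgeR). In the somatic libraries of mixed cell types it stood at 95.9 ± 75.0 CPM in wild type and 204 ± 118.4 CPM in ob/ob (log2 change 1.09, adjusted p = 0.0038, edgeR).

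**Figure D5:**
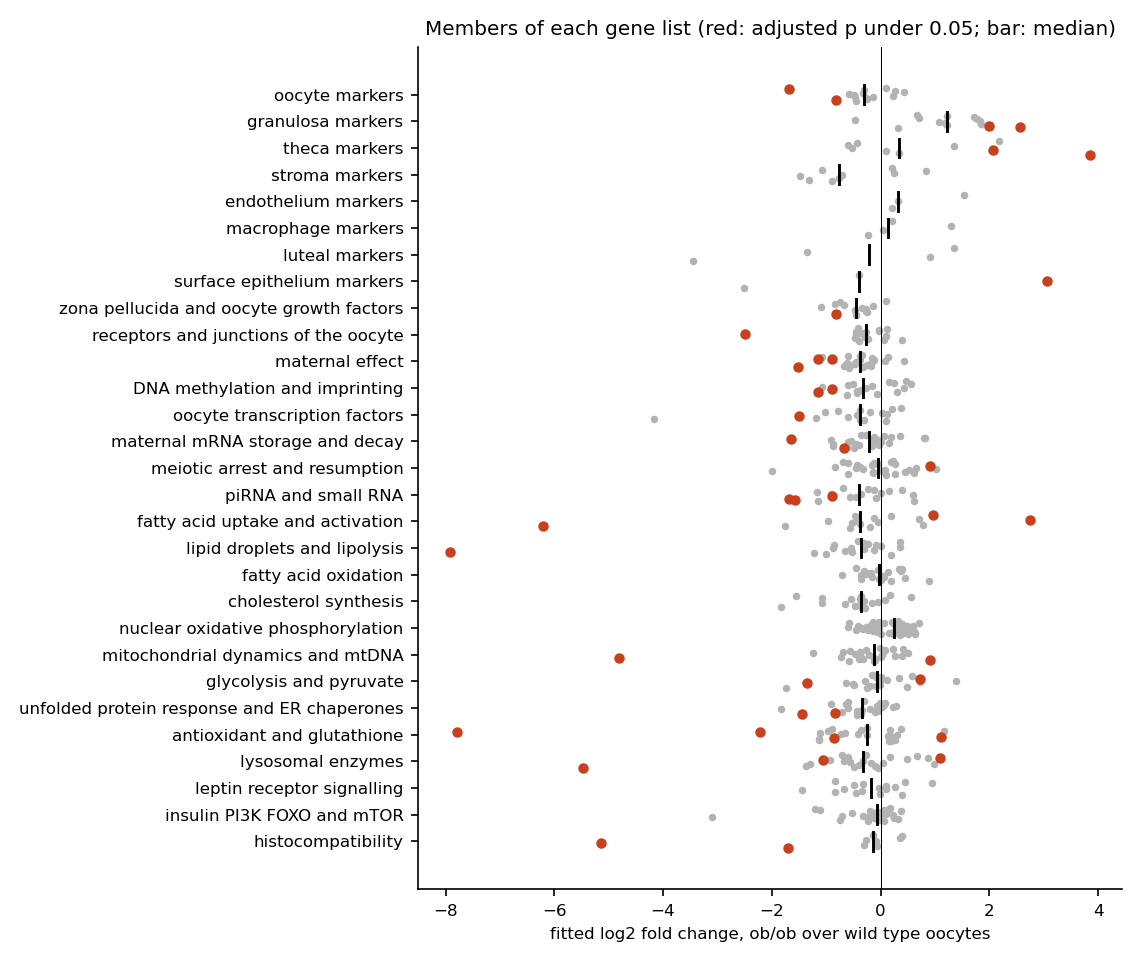
Fitted log2 fold change of ob/ob over wild type oocytes (x) for the tested members of each gene list (rows), 1 point per gene, red where the adjusted p was under 0.05, with a bar at the list's median. Granulosa markers lie to the right with a median of 1.22, nuclear oxidative phosphorylation has a median of 0.25 and no red point, and the far left points are Pnpla3, Gsto2 and Slc27a2.

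The libraries left out for their state held 1 ob/ob and 5 wild type samples and allow no test. Over all 13332 genes the left-out ob/ob library lay above all 5 wild type libraries for 2174 genes (16.3%) and below them for 2787 (20.9%). Of the 396 genes called higher, 98 lay above (24.7%) and 57 below (14.4%). Of the 323 called lower, 41.5% lay below all 5 and 7.43% above.

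In somatic libraries, 31 per genotype from the same strains, 913 of 11278 genes (8.1%) were called. These libraries hold mixed cell types, so the mix of cells and the level per cell cannot be told apart in their sums. Of the 323 genes lower in ob/ob oocytes 207 were tested there, and 37 were lower and 4 higher in ob/ob. Of the 396 higher genes 232 were tested, and 20 were higher and 6 lower. Over the 10098 genes tested in both, 313 were higher and 535 lower. A test of the difference between the oocyte and the somatic effect called 10 of 16806 genes (0.0595%), among them Manba, for which the log2 change in oocytes minus that in somatic libraries was -6.01 ± 1.25 (SE, adjusted p = 0.017, edgeR). Pnpla3, Mtfr2 and Tox3 did not pass that test, with adjusted p-values of 0.99994, 0.99994 and 0.875 (edgeR), so their change was not shown to differ between oocytes and somatic cells. Called genes were spread over the chromosomes, with 3.77% of tested genes called on chromosome X and 7.68% on chromosome 17 as the lowest and highest of 20.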

How the data were processed

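The authors deposited raw UMI counts per gene and cell. The submitters' processing notes list mm9; aligner, counter and annotation: not given in the sources used here. Left out were 92 ERCC rows and 3 RGC rows, and 37 mitochondrial rows were named from GENCODE. Of 13254 cell columns, 6315 of other libraries were not read. Counts of cells that reached 1000 genes and 3000 UMIs were summed per library and tested with edgeR 4.0.16 (filterByExpr, TMM, quasi-likelihood, Benjamini-Hochberg adjustment over all genes tested, threshold 0.05) in R 4.3.3. Alternatives used DESeq2 1.42.0 and limma 3.58.1 (pseudocount 1), other filters, cell weights and library sets, and left out each library in turn. CPM of left-out and db/db libraries were scaled to the level of the 10 compared. Library measures were compared by exact permutation over all 120 arrangements (scipy 1.17.1), and genes per cell at 10000 UMIs. No doublet caller was run, and 0 pairs of kept cells were identical. The statistics were tested on simulated data for the 10 libraries. The test recovered 29 of 100 genes changed 2-fold and 81 of 100 changed 4-fold, and called 7 unchanged genes. Smaller changes can therefore be missed in lists with 0 calls.

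The libraries and gene lists were chosen with earlier results of these data known. Named genes are the 10 largest called rises and the 10 largest called falls that averaged 20 CPM or more, up to 4 called members of a list, up to 2 members by level where a list had fewer than 2 calls, and Lep, Lepr, Nnt and Ifi202b. Pseudogenes and unnamed gene models are not printed.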

Additional observations from a re-analysis of the deposited data

Results flagged for a closer look

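Several single libraries stood apart from the other wild type libraries by more than Dixon's 95% limit, a limit that chance alone passes in about 1 in 20 groups. Wild type replicate 12 held 69.8 CPM of Stk32a, 350 CPM of Mtfr2 and 928 UMIs per ERCC UMI. Wild type replicate 2 held 39.2 CPM of Col1a2 and 18.9 CPM of Dcn, both stroma markers, 2137 CPM of Cox7c and 128.6 CPM of Ptpn11. Wild type replicate 11 held 102.6 CPM of Defa29, replicate 3 held 0.638 CPM of Ifi202b, and replicate 1 was low with 14.9 CPM of AA465934.

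The log2 change in oocytes minus that in somatic libraries passed edgeR's test of the difference for 10 genes. It was -2.31 for Khdrbs1 (adjusted p = 0.00098), -6.04 for AA465934 (0.0031), -4.88 for Pxdn (0.0055), -6.01 for Manba (0.017), 1.41 for mt-Nd1 (0.0097), 2.63 for Hnrnpa1 (0.017), 3.17 for Smpdl3b (0.017), 1.90 for Ifitm2 (0.020), 1.41 for Vdac2 (0.034) and 9.40 for Sphkap (0.017). The value of mt-Nd1 supports nothing, since the oocyte libraries were chosen by a state in which its level differs. Hnrnpa1 and Ifitm2 were not called in oocytes (adjusted p = 0.093 and 0.059, edgeR). Both were lower in ob/ob somatic libraries (log2 change -1.84 and -0.67, adjusted p = 8.3e-10 and 0.0011, edgeR). Sphkap had 0 UMIs in wild type and 9 UMIs in ob/ob oocytes, all in ob/ob replicate 4, and Smpdl3b had 14 and 32 UMIs. Khdrbs1, which encodes the RNA-binding protein Sam68, stood at 54.7 to 87.5 CPM in wild type and at 13.997, 21.3 and 16.9 CPM in ob/ob oocytes, and in somatic libraries its log2 change was 0.32 (adjusted p = 0.104).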

How the results depend on the processing

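The 719 calls in oocytes became 1432 with the DESeq2 Wald test and 32 with all 4 ob/ob and 12 wild type libraries, and leaving out each library gave 185 to 1203. The 913 somatic calls became 3842 with no low count filter. The 10 calls of the difference between oocytes and somatic libraries became 18 with DESeq2 size factors. Genes per cell differed by 4.93 between the groups (ob/ob minus wild type), by -5.17 with the stricter cell filter, by -10.5 as a median over cells, and by -53.0 to 81.6 when each library was left out. Dnm1l went from a log2 change of 0.90 to -0.031 with all libraries. Of 62 called genes followed, 29 kept their call without each of the 10 libraries. Many of them were named for a large change or a small p, so that share does not stand for all calls. Among all calls, 51 of the 396 higher and 87 of the 323 lower genes kept theirs. The cause of these changes was not tested. No paired analysis was possible because replicate numbers here only name samples.

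The number of ob/ob libraries limits the precision. Strain cannot be told apart from genotype, and the libraries compared were chosen by their state.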

Other observations

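Some genes outside the rule for named genes were read after their values were seen. Mrap, the accessory protein of the melanocortin receptor, stood at 44.6 to 106.65 CPM in wild type and at 229, 190 and 204 CPM in ob/ob oocytes (log2 change 1.70 ± 0.26 SE, adjusted p = 0.0013, edgeR), and at 96.7 to 291 CPM in db/db oocytes. Xdh, xanthine dehydrogenase of purine breakdown, stood at 102.1 to 239 CPM and at 527, 377 and 403 CPM (log2 change 1.42 ± 0.23 SE, adjusted p = 0.0020), and at 318 to 401 CPM in db/db oocytes. For both genes no ob/ob library reached down to the wild type range. The left-out wild type libraries were lower, at 2.33 to 18.5 CPM of Mrap and 7.02 to 24.2 CPM of Xdh.

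Gnrh1, which encodes gonadotropin-releasing hormone, stood at 157 to 396 CPM in wild type and at 626, 840 and 975 CPM in ob/ob oocytes (log2 change 1.48 ± 0.27 SE, adjusted p = 0.0046, edgeR, and 0.0524 without ob/ob replicate 4). Vdac2, a channel of the outer mitochondrial membrane, stood at 95.8 to 200 CPM and at 388, 259 and 399 CPM (log2 change 1.38 ± 0.24 SE, adjusted p = 0.0032). Pxdn, which encodes peroxidasin of the basement membrane, stood at 12.8 to 31.3 CPM and at 0.479, 1.12 and 2.07 CPM (log2 change -4.15 ± 0.47 SE, adjusted p = 8.3e-05). In the left-out wild type libraries Gnrh1 stood at 392 to 918 CPM, Vdac2 at 40.2 to 103.2 CPM and Pxdn at 8.93 to 47.1 CPM.

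Around Lep, the gene mutated in ob/ob mice, the nearest neighbours tested in oocytes did not pass the test. Snd1 had a log2 change of -0.05 (adjusted p = 0.905, edgeR), Lrrc4 of -0.65 (adjusted p = 0.328) and Rbm28 of 0.19 (adjusted p = 0.567).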
